A study of Mus musculus with 15 samples.

Results

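Fatty acid oxidation and ketogenesis in mouse liver were followed through 37 genes, chosen by name as the genes that carry fatty acids into mitochondria and peroxisomes, shorten them there, move the electrons released and reduce acetoacetate to a ketone body. All 37 were among the 16330 genes of the table and all passed the filter on low values, which left 13570 genes tested. They were grouped by role and by the compartment of their protein: 17 mitochondrial, 7 peroxisomal, 4 found in both and 9 elsewhere in the cell. The livers carried luciferase, a firefly enzyme without a role in mouse metabolism and here the control, or LbNOX, the water-forming NADH oxidase of a lactic acid bacterium, which regenerates NAD+. Mice received ethanol or water by gavage and the liver was taken 6 h later. The 3 libraries of luciferase livers after ethanol were M10 to M12, the 3 of LbNOX livers after ethanol M13 to M15, the 4 of LbNOX livers after water M6 to M9, and the 5 of luciferase livers after water M1 to M5. The series' design text names wild-type and ChREBP animals, the sample titles luciferase and LbNOX, so the ChREBP genotype of the animals is not settled here; their strain, age and sex, and the vector and promoter of the constructs, are not given in the sources used here. Whether each library is a separate animal is not stated in the labels, so that the p-values cover a spread between samples that may be technical.

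In mitochondrial fatty acid oxidation, long-chain fatty acids are activated to acyl-CoA, exchanged onto carnitine to cross the inner membrane, and cut down in repeated cycles of dehydrogenation, hydration, a second dehydrogenation and thiolysis. The first dehydrogenation passes electrons through FAD and the electron transfer flavoprotein, while the 3-hydroxyacyl-CoA dehydrogenase step reduces NAD+ to NADH, so each turn adds to the NADH pool that the oxidation of ethanol also fills. Peroxisomes run a similar cycle on very long and branched chains with an oxidase in place of the FAD-linked dehydrogenase, and their 3-hydroxyacyl-CoA dehydrogenases also make NADH. In liver, the acetyl-CoA of mitochondrial oxidation feeds ketone body synthesis, whose last step uses NADH to turn acetoacetate into 3-hydroxybutyrate. Many of these genes are targets of the fasting-activated nuclear receptor PPAR-alpha in mouse liver.

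The promoters of 4 members are shown: Cpt1a and Acsl5 because they were the members that passed the test for ethanol against water, and Hadha and Hadhb because these subunits of 1 enzyme complex are transcribed from facing starts on opposite strands, with 85 bases between them in GENCODE. The RefSeq starts of Hadha and Hadhb, used for the windows printed here, lie further apart. Each sequence is from RefSeq on GRCm38.p6 and runs 5′ to 3′ from 250 bases before to 50 bases after a RefSeq start. Capitals mark the letters AGGTCA (a nuclear receptor motif) or GGGCGG (the GC box), or their reverse complements TGACCT and CCGCCC.
Cpt1a, chr19:3323051-3323350, plus strand: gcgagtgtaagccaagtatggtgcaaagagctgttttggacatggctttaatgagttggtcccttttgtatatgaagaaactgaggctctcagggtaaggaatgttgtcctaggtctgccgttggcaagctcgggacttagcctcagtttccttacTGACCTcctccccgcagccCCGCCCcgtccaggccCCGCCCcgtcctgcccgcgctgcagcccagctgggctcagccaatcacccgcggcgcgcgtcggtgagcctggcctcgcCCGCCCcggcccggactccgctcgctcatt
Acsl5, chr19:55253119-55253418, plus strand: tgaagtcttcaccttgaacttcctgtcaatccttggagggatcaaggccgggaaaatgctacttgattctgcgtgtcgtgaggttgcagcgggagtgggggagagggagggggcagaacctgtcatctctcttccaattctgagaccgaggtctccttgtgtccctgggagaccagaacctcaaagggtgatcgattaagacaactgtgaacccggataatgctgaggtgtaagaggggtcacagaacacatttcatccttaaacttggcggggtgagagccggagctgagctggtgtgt
Hadha, chr5:30154931-30155230, minus strand: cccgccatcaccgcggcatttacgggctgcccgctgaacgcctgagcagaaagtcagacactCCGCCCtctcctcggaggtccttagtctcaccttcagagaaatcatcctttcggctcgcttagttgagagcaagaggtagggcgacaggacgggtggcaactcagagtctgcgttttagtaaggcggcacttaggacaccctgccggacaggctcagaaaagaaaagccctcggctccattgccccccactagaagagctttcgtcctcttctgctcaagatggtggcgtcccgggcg
Hadhb, chr5:30155003-30155302, plus strand: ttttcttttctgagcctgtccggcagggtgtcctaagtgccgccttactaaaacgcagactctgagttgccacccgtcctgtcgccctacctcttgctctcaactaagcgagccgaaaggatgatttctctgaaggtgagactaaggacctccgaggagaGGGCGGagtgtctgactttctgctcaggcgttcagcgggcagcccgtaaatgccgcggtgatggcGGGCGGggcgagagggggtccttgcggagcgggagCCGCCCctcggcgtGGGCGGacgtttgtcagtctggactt
The Cpt1a window held 1 AGGTCA on the minus strand -94 bases from the start and 3 GC boxes on the minus strand at -75, -59 and 20. The Acsl5 window held none of the motifs searched. The windows of Hadha and Hadhb overlap, so that the GC box of Hadha at -188 and that of Hadhb at -90 are the same 6 letters read from either strand. Promoters were found for 30 of the 37 members, 32 windows in all. AGGTCA was present in 18.8% of these windows and in 16.3% of the 32851 windows of all genes; the members were Acadm, Acadvl, Cd36, Cpt1a, Fabp1 and Slc27a2. The GC box was present in 71.9% of member windows and in 35.7% of all. The windows of all genes belong to 27025 genes, more than the 13570 tested here. Whether either share would differ from that of the genes tested was not examined. The DR1 repeat, a pair of AGGTCA in the same direction with 1 base between them, was in 0 member windows and in 0.0396% of all, and the E-box CACGTG in 0 and in 7.15%. Only 13 of the 32851 windows held the exact DR1 repeat, so 32 member windows are too few to show a lack of it. Both strands were read, and a repeat would also count as AGGTCA.

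Libraries held 10.6 to 23.7 M recovered reads, of which the 37 genes took between 1.42% in M3 and 1.99% in M6. M3, a luciferase water library, was the lowest of the 15 for 20 of 36 members, Eci1 left aside. M3 and the LbNOX water library M8 carried pancreatic acinar transcripts, with a summed level of 6 markers of 1042 in M3 and 8022 in M8 against 38.0 to 278 in the other libraries. The summed level of 9 Kupffer cell markers was 1525 to 1953 in luciferase ethanol, 1748 to 2919 in LbNOX ethanol, 1860 to 3546 in LbNOX water and 1683 to 4200 in luciferase water livers, with M8 and M3 highest; none of these markers was at 0 throughout a group. The summed level of 10 hepatocyte markers was 803686 to 1005410 in luciferase ethanol, 693909 to 835856 in LbNOX ethanol, 586026 to 1073860 in LbNOX water and 760420 to 953509 in luciferase water livers. The LbNOX ethanol libraries overlapped the LbNOX water libraries only through M8, and 7 of the 10 had a log2 fold change below 0 there. Markers of periportal hepatocytes, the zone known for fatty acid oxidation, overlapped between ethanol and water livers of each construct. The summed level of 10 pericentral markers was 62097 to 84612 in LbNOX ethanol and 52155 to 96396 in LbNOX water livers. These groups overlapped only through M8, and 9 of 10 had a log2 fold change below 0, with 0 called. In luciferase livers the pericentral sums overlapped, 8 of 10 were above 0 and Cyp2c29 was called higher (0.98, limma adjusted p = 0.0318). Of the neutrophil markers, all 6 tested had a log2 fold change above 0 in LbNOX ethanol against water, with a median of 1.98 and 4 unadjusted p below 0.05, though none was called. Their summed level was 162 to 283 in luciferase ethanol, 185 to 725 in LbNOX ethanol, 117 to 308 in LbNOX water and 115 to 259 in luciferase water livers, and Ngp was at 0 throughout luciferase ethanol. Of the T and NK cell markers, 7 of 8 tested were below 0 in luciferase ethanol against water and Nkg7 was called (-2.36, limma adjusted p = 0.0486). Nkg7 was low, with a mean of 6.18 normalized counts in luciferase ethanol and 24.4 in luciferase water livers. The summed level of the T and NK cell markers was 91.98 to 106 in luciferase ethanol, 95.5 to 215 in LbNOX ethanol, 150 to 270 in LbNOX water and 97.4 to 283 in luciferase water livers. In luciferase ethanol against water, 7 of 8 Kupffer cell and 8 of 10 endothelial markers tested were also below 0, with 0 called. Adipocyte markers summed to 172 to 1453 in luciferase ethanol and 18.1 to 463 in LbNOX ethanol livers. After water, their sums were 17.3 to 559 in LbNOX and 43.6 to 812 in luciferase livers. All 3 tested were above 0 with ethanol in luciferase (median 1.71) and below 0 in LbNOX livers (median -0.93), with 0 called. Between the constructs after ethanol their median was -3.48, with 0 called. In bulk liver, fewer cells of a type and less RNA per cell cannot be told apart, and the part of these markers in the results was not tested. Values are therefore also given without M3 and M8 where a call changes. The LbNOX ethanol library M15 was high in cholangiocyte (bile duct cell) markers, at 1742 beside 1626 in M3 and 1482 in M8. Its endothelial markers summed to 4481, beside 4889 in M3 and 5176 in M8, and its acinar markers to 260. M15 was kept, so the libraries left out are water libraries only.

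Per kilobase of exon, the mean level over the 15 libraries ran over a wide range. Exons of all annotated transcripts of a gene were merged for this length. It can exceed the length of the transcript expressed, so the order of genes is approximate. Fabp1, the liver fatty acid binding protein, stood highest at 66406 normalized counts per kilobase, followed by the peroxisomal thiolase Acaa1b at 7033 and the mitochondrial thiolase Acaa2 at 6465. The lowest were Crat, the carnitine acetyltransferase, at 359, Pdk4, a kinase that switches off pyruvate dehydrogenase, at 133, and Eci1 at 65.6. Reads may be shared between near-identical transcripts: 49.9% of the 31-base words of Etfb, 44.9% of Cyp4a10 (with Cyp4a32 and Cyp4a31), 40.0% of Acaa1b (with Acaa1a) and 23.3% of Hadhb (mostly with Gm13910) also occur in another gene, so the levels of these genes are uncertain. All other values below are normalized counts of 1 gene, compared across libraries only, and fold changes are log2 differences of normalized count + 1.

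**Figure D1:**
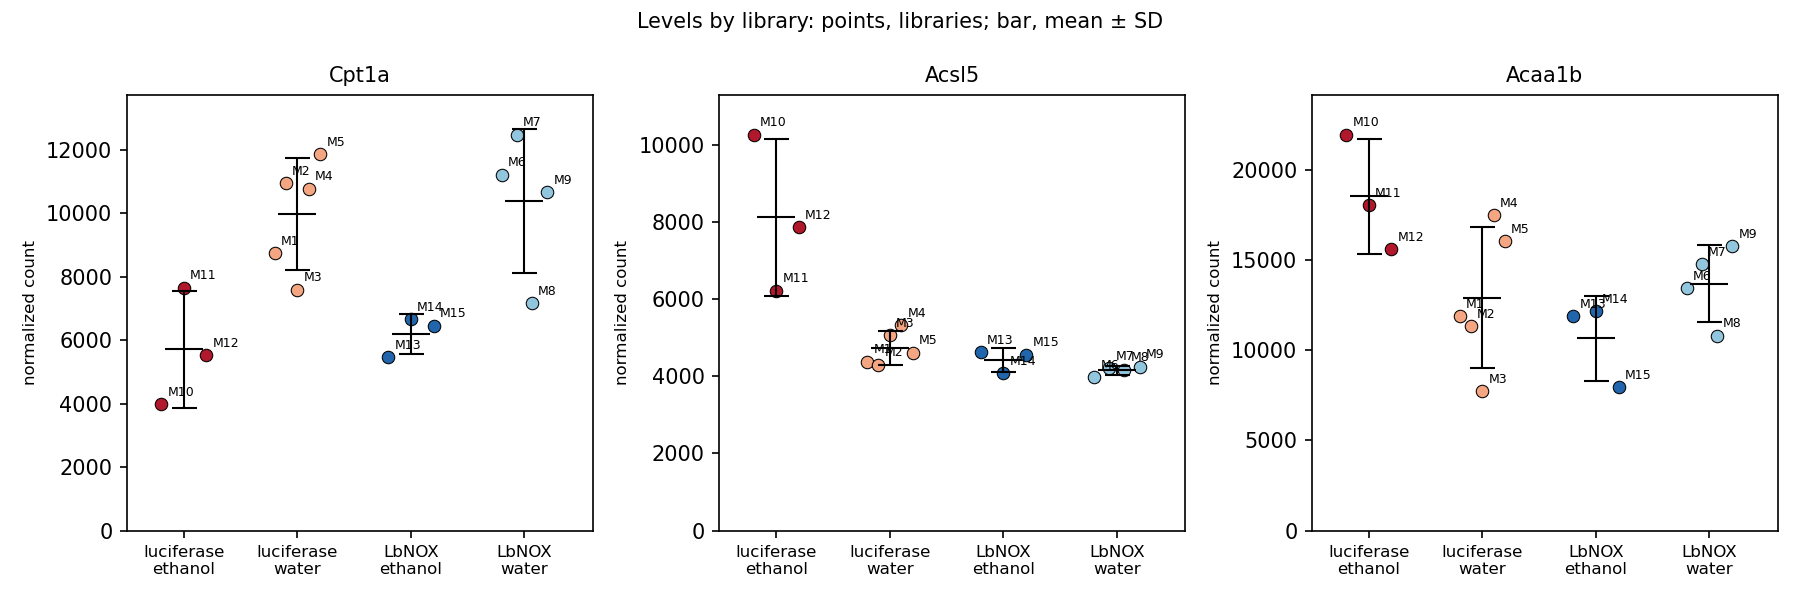
Normalized counts of Cpt1a, Acsl5 and Acaa1b in each of the 15 libraries, 1 panel per gene, with ethanol groups left of the water group of the same construct; points are libraries and bars are group mean ± SD. Cpt1a sits at 3973 to 7647 in the 6 ethanol libraries and at 7158 to 12471 in the 9 water libraries, and Acsl5 stands at 6214 to 10261 in luciferase ethanol livers alone, above every other library.

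Few of the 37 genes passed the test in any comparison. In luciferase livers after ethanol against water, 2 members passed limma's test at an adjusted p below 0.05, Cpt1a lower and Acsl5 higher, which is 5.41% of the members against 7.75% of all genes tested (4.62% higher and 3.13% lower). In LbNOX livers 0 members passed in ethanol against water by limma, edgeR or DESeq2, where limma called 0.00737% of all genes; 3 members had an unadjusted p below 0.05 (Cpt1a, Bdh1 and Pex11a). After ethanol, Acsl5 was the 1 member that differed between LbNOX and luciferase livers, 2.7% of the members against 6.06% of all genes, with 3.82% lower. After water, 0 members differed between the constructs by limma, edgeR or DESeq2, 0 had an unadjusted p below 0.05, and limma called 0% of all genes. The difference of the ethanol effects between the constructs passed for 0 members by limma and edgeR and for Acsl5 by DESeq2 (adjusted p = 0.0213), with 3 unadjusted p below 0.05 by limma. Of all genes, limma called 1.67% and DESeq2 4.66%.

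Most estimates of ethanol against water lay below 0, and 31 of 37 were within 0.5 of 0 on the log2 scale in each construct. In luciferase livers the log2 fold change of ethanol against water was below 0 for 29 of 37 members, with a median of -0.15, beside 49.4% of all genes and a median of 0.01. That median became -0.28 without M11, -0.24 without M3, -0.08 without M4, M5 or M12 and -0.07 without M10. In LbNOX livers the log2 fold change was below 0 for 32 of 37, with a median of -0.30, beside 50.5% of all genes. That median ran from -0.40 without M8 to -0.21 without M15. Under quantile normalization the median was -0.20 in luciferase and -0.20 in LbNOX livers. The median difference of the ethanol effects was -0.16, and -0.00 under quantile normalization. LbNOX over luciferase was below 0 for 7 of 37 after water, with a median of 0.12 that ran from -0.01 without M3 to 0.21 without M8 and was 0.06 under quantile normalization. It was below 0 for 23 of 37 after ethanol, with a median of -0.04 that ran from -0.11 without M10 to 0.06 without M11 and was 0.08 under quantile normalization. After ethanol 28 of the 37 lay within 0.5 of 0, and those outside included Pdk4 at 1.06, Cyp4a10 at 0.80, Cd36 at 0.74 and Acaa1b at -0.81. Members share libraries and normalization and are not replicates, so these counts are a description. The 95% intervals of limma stayed within a 2-fold change in both directions for 29 members in luciferase ethanol, 30 in LbNOX ethanol, 28 in LbNOX against luciferase after ethanol and 34 after water. Without M3 and M8, 5 members were called in luciferase livers after ethanol, Acsl5 higher and Cpt1a, Cpt2, Hadhb and Pex11a lower, beside 7.28% of all genes (4.59% higher and 2.69% lower). In LbNOX livers 0 members were then called by limma, where 1.06% of all genes were. M3 and M8 are water libraries in which the members stood low, so leaving them out raises the median water level of the members. Member calls added in that fit cannot be separated from this choice of libraries.

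Averaged over both constructs, a comparison chosen after the values were seen, the log2 fold change of ethanol against water was below 0 for 34 of 37 members, with a median of -0.20, beside 50.7% of all genes and a median of -0.00. Limma called Cpt1a lower (-0.78, adjusted p = 0.0134) and Acsl5 higher (0.42, adjusted p = 0.0293), beside 5.2% of all genes (2.98% higher and 2.21% lower). The Acsl5 call was lost without M1, M2, M6, M7, M10, M12, M13 or M15 (limma adjusted p of 0.0506 to 0.0831). Without M3 and M8, 14 members were called, 13 of them lower, beside 7.07% of all genes (4.14% higher and 2.93% lower). These 13 covered entry by carnitine (Cpt1a, Cpt2 and Slc25a20), the mitochondrial cycle (Acadl, Acads and Hadhb), unsaturated chains (Eci2, Decr1 and Decr2), the ketone body dehydrogenase Bdh1, activation (Acsl1 and Slc27a2) and Pex11a. Their log2 fold changes included -0.91 for Cpt1a, -0.62 for Slc27a2 and -0.61 for Pex11a. Over 36 members without Eci1, the median log2 level relative to all libraries was -0.46 in M3 and -0.18 in M8. It was 0.03 to 0.31 in the other water libraries, so leaving out M3 and M8 raises the median water level of the members. M15, the lowest ethanol library at -0.30, was kept. Lower calls went from 1 to 13 with this choice of libraries. They cannot be separated from it, so their spread over roles is a description. Calls named from here on are those of the fit of all 15 libraries and of comparisons of 2 groups, unless libraries left out are given.

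**Figure D2:**
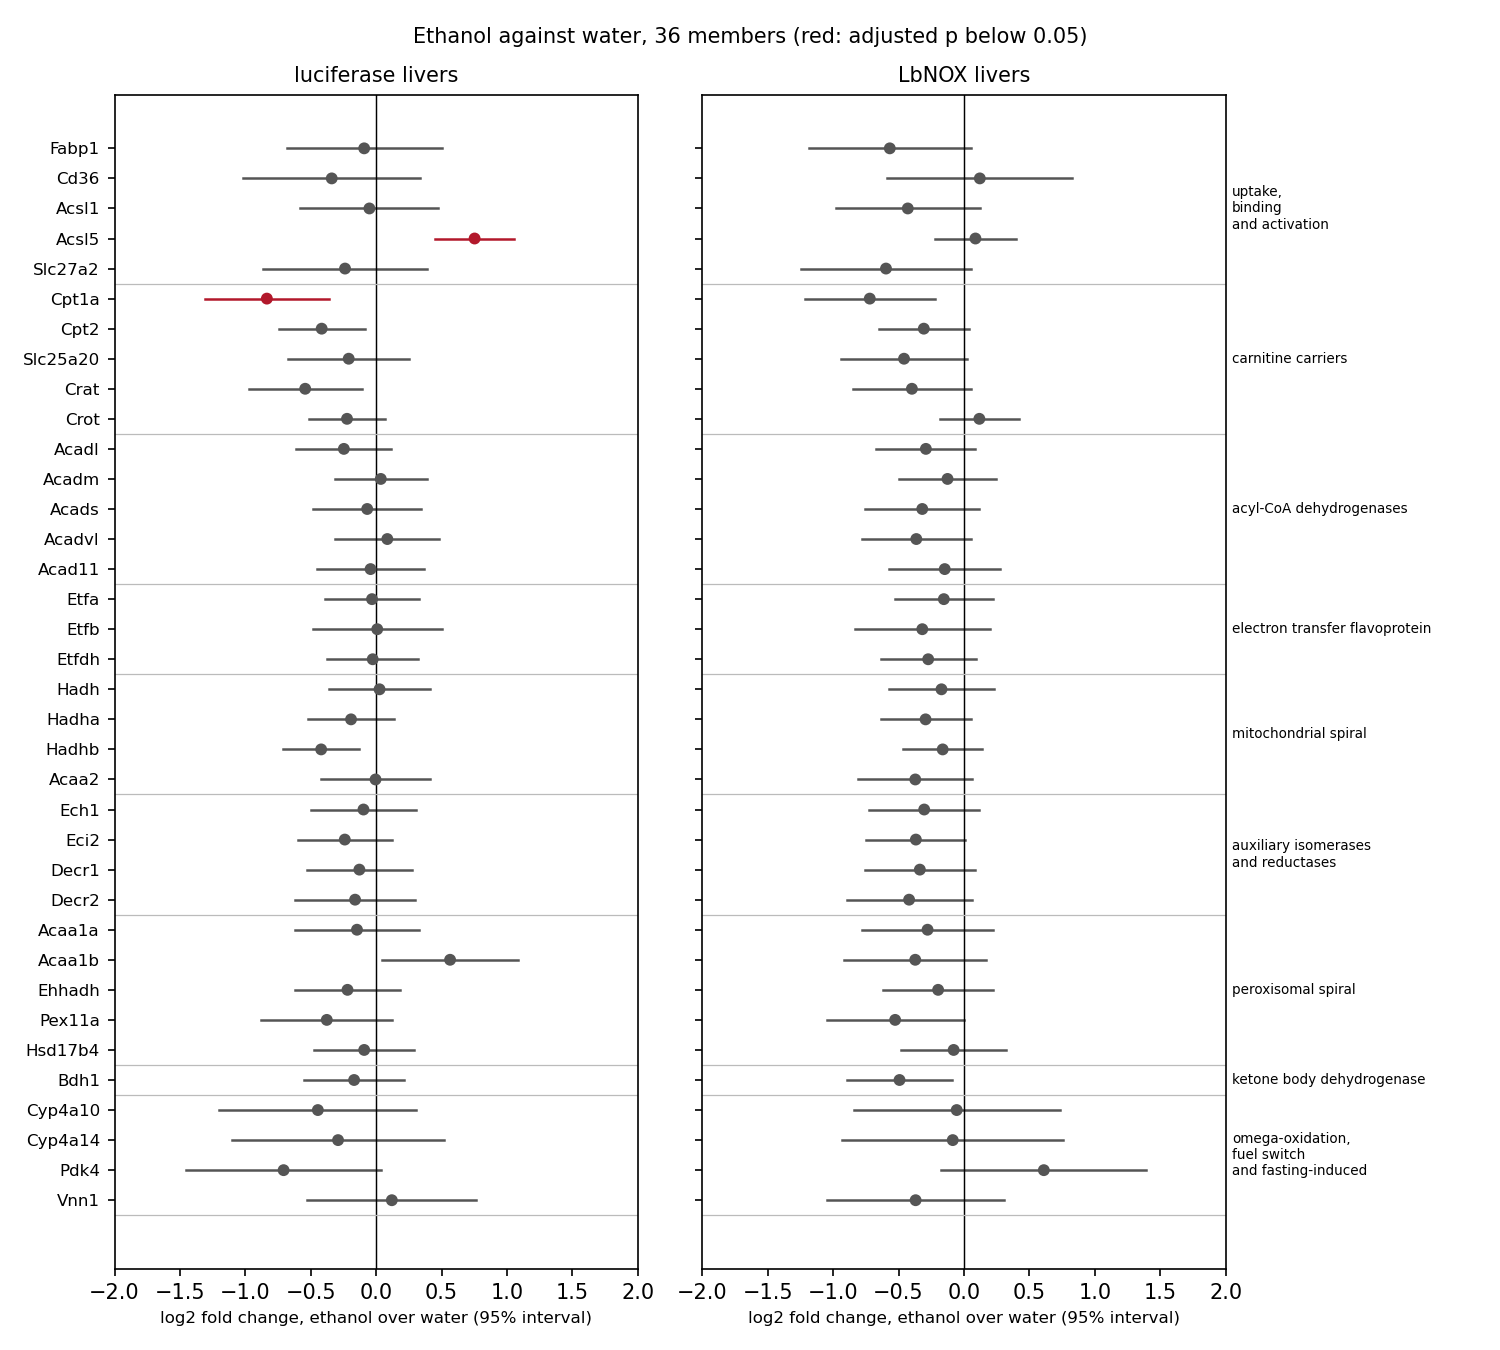
Log2 fold change of 36 members, Eci1 left out, in ethanol against water for luciferase livers on the left and LbNOX livers on the right; points are limma estimates, bars their 95% intervals, and red marks an adjusted p below 0.05. Most estimates of ethanol against water lie slightly left of 0, Cpt1a is at -0.84 and -0.72, and Acsl5 is at 0.75 in luciferase and 0.09 in LbNOX livers.

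Among genes for uptake, binding and activation, Acsl5 rose with ethanol in luciferase livers. Acsl5 encodes a long-chain acyl-CoA synthetase, which activates fatty acids for oxidation as well as for lipid synthesis. Acsl5 had 10261, 6214 and 7863 normalized counts in luciferase ethanol livers, against 4374, 4298, 5066, 5320 and 4606 in luciferase water livers. It had 4626, 4069 and 4560 in LbNOX ethanol livers, against 3981, 4207, 4171 and 4250 in LbNOX water livers. All luciferase ethanol libraries lay above every other library, as 1 member that was wholly higher after ethanol in luciferase livers where 8.32% of all genes were, whereas the LbNOX ethanol and LbNOX water libraries overlapped. The log2 fold change of ethanol against water was 0.75 in luciferase livers (SE 0.14, limma adjusted p = 0.00418) and 0.09 in LbNOX livers (SE 0.15, limma adjusted p = 0.848). After ethanol, LbNOX over luciferase was -0.85 (SE 0.16, limma adjusted p = 0.00648), and both calls held with each library left out. After water, Acsl5 was also the 1 member wholly lower in LbNOX than in luciferase livers, where 0.619% of all genes were (log2 fold change -0.18, limma adjusted p = 1.00). The difference between the ethanol effects was -0.66 (SE 0.20, limma adjusted p = 0.128), and it passed without M11 (limma adjusted p = 0.0322), where 1.75% of all genes did. Acsl1, the main liver acyl-CoA synthetase, averaged 15364 ± 2065 in luciferase ethanol livers and 16528 ± 5042 in luciferase water livers, and 13230 ± 904 in LbNOX ethanol livers and 18144 ± 3842 in LbNOX water livers (SD, n = 3, 5, 3 and 4); it passed no comparison.

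The remaining uptake and binding genes, Fabp1, the very long-chain acyl-CoA synthetase and transporter Slc27a2, and the scavenger receptor Cd36, passed no comparison. Fabp1 had 21732, 28148 and 27092 in LbNOX ethanol livers, against 40106, 41620, 22898 and 53234 in LbNOX water livers; the groups overlapped only through M8, and the log2 fold change was -0.57 (SE 0.29, limma adjusted p = 0.476). In luciferase livers Fabp1 had 39472, 46980 and 27099 after ethanol, against 35664, 37478, 26871, 49364 and 53076 after water. Slc27a2 likewise had 8969, 12872 and 10609 in LbNOX ethanol livers, against 17502, 18435, 9536 and 22239 in LbNOX water livers, again overlapping at M8 (-0.60, SE 0.30, limma adjusted p = 0.476). Its values in luciferase livers were 9568, 15252 and 9782 after ethanol, against 10810, 15310, 8847, 14103 and 20010 after water. Cd36 spread widely, with 7572, 3945 and 3069 in LbNOX ethanol livers, 2009, 3535 and 2744 in luciferase ethanol livers, 4538, 4434, 5836 and 2516 in LbNOX water livers, and 3902, 3304, 2730, 4858 and 2683 in luciferase water livers. The LbNOX and luciferase ethanol libraries of Cd36 overlapped, with a log2 fold change of 0.74 (SE 0.35, limma adjusted p = 0.244).

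Among the carnitine carriers, Cpt1a fell with ethanol in luciferase livers and was lower by a similar amount, short of the threshold, in LbNOX livers. Cpt1a encodes the liver carnitine palmitoyltransferase of the outer mitochondrial membrane, the rate-limiting entry step of long-chain oxidation. Cpt1a had 3973, 7647 and 5524 normalized counts in luciferase ethanol livers, against 8739, 10935, 7584, 10768 and 11855 in luciferase water livers. It had 5467, 6656 and 6451 in LbNOX ethanol livers, against 11214, 12471, 7158 and 10650 in LbNOX water livers. The LbNOX groups did not overlap, and in luciferase livers only M11 after ethanol and M3 after water crossed. The log2 fold change was -0.84 in luciferase livers (SE 0.22, limma adjusted p = 0.0322) and -0.72 in LbNOX livers (SE 0.23, limma adjusted p = 0.246). The difference between the constructs was 0.12, with a 95% interval of -0.57 to 0.80 (limma adjusted p = 0.892), an interval that leaves room for either effect to be larger. The luciferase call was lost without M2 (limma adjusted p = 0.0690), M4 (0.0515), M5 (0.0622), M10 (0.194) or M12 (0.0969), and when only the luciferase groups were fitted (0.0761). Without M3 and M8, the log2 fold change was -0.93 in luciferase livers (limma adjusted p = 0.00970) and -0.89 in LbNOX livers (limma adjusted p = 0.0531).

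The other carriers had estimates below 0 in luciferase livers and passed no comparison in the fit of all 15 libraries. Cpt2, which returns the acyl group from carnitine to CoA inside mitochondria, averaged 2601 ± 415 in luciferase ethanol livers and 3491 ± 601 in luciferase water livers (SD, n = 3 and 5; log2 fold change -0.42, limma adjusted p = 0.125), and was called without M3 and M8 (limma adjusted p = 0.0122). Slc25a20, the translocase that swaps acylcarnitine for carnitine, averaged 3346 ± 657 and 3948 ± 1016 in the same groups. Crat had 1765, 1495 and 1220 in luciferase ethanol livers, against 2095, 2181, 1795, 3245 and 1731 in luciferase water livers, where only M10 reached into the water range (-0.54, SE 0.20, limma adjusted p = 0.127). In LbNOX livers Crat had 1925, 1364 and 1611 after ethanol, against 2480, 2333, 2102 and 1696 after water. Crot, the peroxisomal carnitine octanoyltransferase, averaged 10632 ± 521 in LbNOX ethanol livers and 8350 ± 1847 in luciferase ethanol livers (SD, n = 3 each; log2 fold change 0.37, limma adjusted p = 0.177). In LbNOX livers, 4 members did not overlap between ethanol and water, all lower after ethanol: Cpt1a, Cpt2, Eci2 and Pex11a, 10.8% of the members, where 5.49% of all genes lay wholly lower and 10.9% did not overlap in either direction.

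No FAD-linked step of mitochondria passed a comparison of 2 groups. The acyl-CoA dehydrogenases Acadvl, Acadl, Acadm and Acads take very long, long, medium and short chains in that order, and Etfa, Etfb and Etfdh pass their electrons on to ubiquinone. The log2 fold changes of these 7 for ethanol against water lay between -0.25 and 0.08 in luciferase livers and between -0.36 and -0.13 in LbNOX livers. Acadm averaged 9351 ± 1112 in luciferase ethanol livers and 9204 ± 1603 in luciferase water livers, and 9110 ± 1146 in LbNOX ethanol livers and 9963 ± 1370 in LbNOX water livers (SD, n = 3, 5, 3 and 4). Its 95% interval for ethanol against water was -0.32 to 0.39 in luciferase and -0.49 to 0.24 in LbNOX livers. Acadvl had the most negative estimate in LbNOX livers, averaging 6661 ± 1101 after ethanol and 8599 ± 1560 after water (-0.36, limma adjusted p = 0.494). Acad11, a dehydrogenase of long chains found in mitochondria and peroxisomes, averaged 7731 ± 1104 in LbNOX ethanol livers and 8621 ± 1600 in LbNOX water livers, and did not pass either.

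The NADH-linked mitochondrial members are Hadh, the short-chain 3-hydroxyacyl-CoA dehydrogenase, Hadha, the trifunctional protein subunit that carries the hydratase and long-chain dehydrogenase, and Bdh1, which makes 3-hydroxybutyrate from acetoacetate. Hadh had 5874, 7179 and 6310 in luciferase ethanol livers, against 6564, 6498, 4287, 7451 and 7396 in luciferase water livers, and 6879, 6796 and 5419 in LbNOX ethanol livers, against 7979, 7568, 5669 and 7543 in LbNOX water livers. Hadha had 7905, 10535 and 9770 in luciferase ethanol livers, against 12026, 11436, 8633, 10454 and 11129 in luciferase water livers, and 10925, 9716 and 7904 in LbNOX ethanol livers, against 12953, 10542, 10239 and 12772 in LbNOX water livers. Bdh1 had 3050, 3340 and 3041 in luciferase ethanol livers, against 3763, 3222, 2625, 4472 and 3856 in luciferase water livers, and 2929, 2842 and 2173 in LbNOX ethanol livers, against 4280, 3905, 2745 and 4058 in LbNOX water livers. The ethanol and water libraries overlapped for all 3 genes in both constructs, for Hadh and Bdh1 in LbNOX livers only through M8. Ethanol against water gave 0.03, -0.19 and -0.17 for Hadh, Hadha and Bdh1 in luciferase livers and -0.17, -0.29 and -0.49 in LbNOX livers. The lowest of the limma adjusted p-values was 0.334, for Bdh1 in LbNOX livers. After ethanol, the Bdh1 libraries of LbNOX livers lay wholly below those of luciferase livers, with a log2 fold change of -0.26 (SE 0.20, limma adjusted p = 0.496); Acaa1b and Acsl5 were the other members lying wholly below, 3 members or 8.11%, where 15.4% of all genes did so.

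Hadhb, the thiolase subunit of the trifunctional protein, and Acaa2, the thiolase of shorter chains, close the mitochondrial cycle and use no NAD+. Hadhb had 4901, 6863 and 5793 in luciferase ethanol livers, against 8086, 8559, 6754, 7414 and 8122 in luciferase water livers, with M11 above M3 alone. The log2 fold change was -0.42 (SE 0.14, limma adjusted p = 0.0754), and the call was made without M3 and M8 (limma adjusted p = 0.0403). In LbNOX livers Hadhb had 8298, 7905 and 6691 after ethanol, against 9431, 8413, 7406 and 8914 after water (-0.16, limma adjusted p = 0.682). Acaa2 averaged 9780 ± 1151 in luciferase ethanol livers and 9958 ± 2116 in luciferase water livers, and 8237 ± 937 in LbNOX ethanol livers and 10793 ± 2170 in LbNOX water livers (SD, n = 3, 5, 3 and 4), and did not pass.

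In the peroxisomal cycle, Ehhadh and Hsd17b4 encode the bifunctional enzymes whose dehydrogenase activity makes NADH. Ehhadh had 6952, 8918 and 6240 in luciferase ethanol livers, against 9684, 7429, 10491, 9742 and 5975 in luciferase water livers, and 8606, 6632 and 7797 in LbNOX ethanol livers, against 9079, 8969, 9727 and 7416 in LbNOX water livers. Hsd17b4 had 11545, 12096 and 10237 in luciferase ethanol livers, against 12245, 12540, 8156, 16185 and 12304 in luciferase water livers, and 14607, 11723 and 11546 in LbNOX ethanol livers, against 14658, 13919, 12131 and 12480 in LbNOX water livers. The groups overlapped for both genes. Ethanol against water gave -0.22 for Ehhadh and -0.09 for Hsd17b4 in luciferase livers, and -0.20 and -0.08 in LbNOX livers, with limma adjusted p-values of 0.569, 0.838, 0.729 and 0.898.

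The peroxisomal thiolases had estimates of opposite sign for ethanol in luciferase livers. Acaa1b had 21967, 18035 and 15605 in luciferase ethanol livers, against 11899, 11355, 7750, 17514 and 16043 in luciferase water livers, and 11878, 12164 and 7965 in LbNOX ethanol livers, against 13440, 14774, 10812 and 15774 in LbNOX water livers. The LbNOX ethanol libraries lay wholly below the luciferase ethanol libraries, at a log2 fold change of -0.81 (SE 0.27, limma adjusted p = 0.0980). That comparison passed without M3 (limma adjusted p = 0.0441, with 7% of all genes called), without M3 and M8 (limma adjusted p = 0.0324, with 8.8%) and with DESeq2 (adjusted p = 0.0363, with 9.94%). Ethanol against water gave 0.56 in luciferase livers (SE 0.24, limma adjusted p = 0.196) and -0.37 in LbNOX livers (SE 0.25, limma adjusted p = 0.597), and the difference of these effects was -0.94 (SE 0.35, limma adjusted p = 0.220). Acaa1a, its close relative, averaged 2153 ± 486 in luciferase ethanol livers and 2423 ± 653 in luciferase water livers (SD, n = 3 and 5; log2 fold change -0.15). The sum of both thiolases, which does not depend on how shared reads were divided between them, averaged 20689 ± 3126 in luciferase ethanol livers and 15336 ± 4502 in luciferase water livers, and 12910 ± 2642 in LbNOX ethanol livers and 16435 ± 2602 in LbNOX water livers (SD, n = 3, 5, 3 and 4). Pex11a, which promotes division of peroxisomes, had 3118, 3008 and 2620 in LbNOX ethanol livers, against 4673, 4639, 3329 and 4257 in LbNOX water livers, wholly lower after ethanol (-0.53, SE 0.24, limma adjusted p = 0.427). In luciferase livers Pex11a had 2313, 3590 and 2987 after ethanol, against 4046, 4263, 2190, 5426 and 3812 after water; it was called there without M3 and M8 (limma adjusted p = 0.0413).

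**Figure D3:**
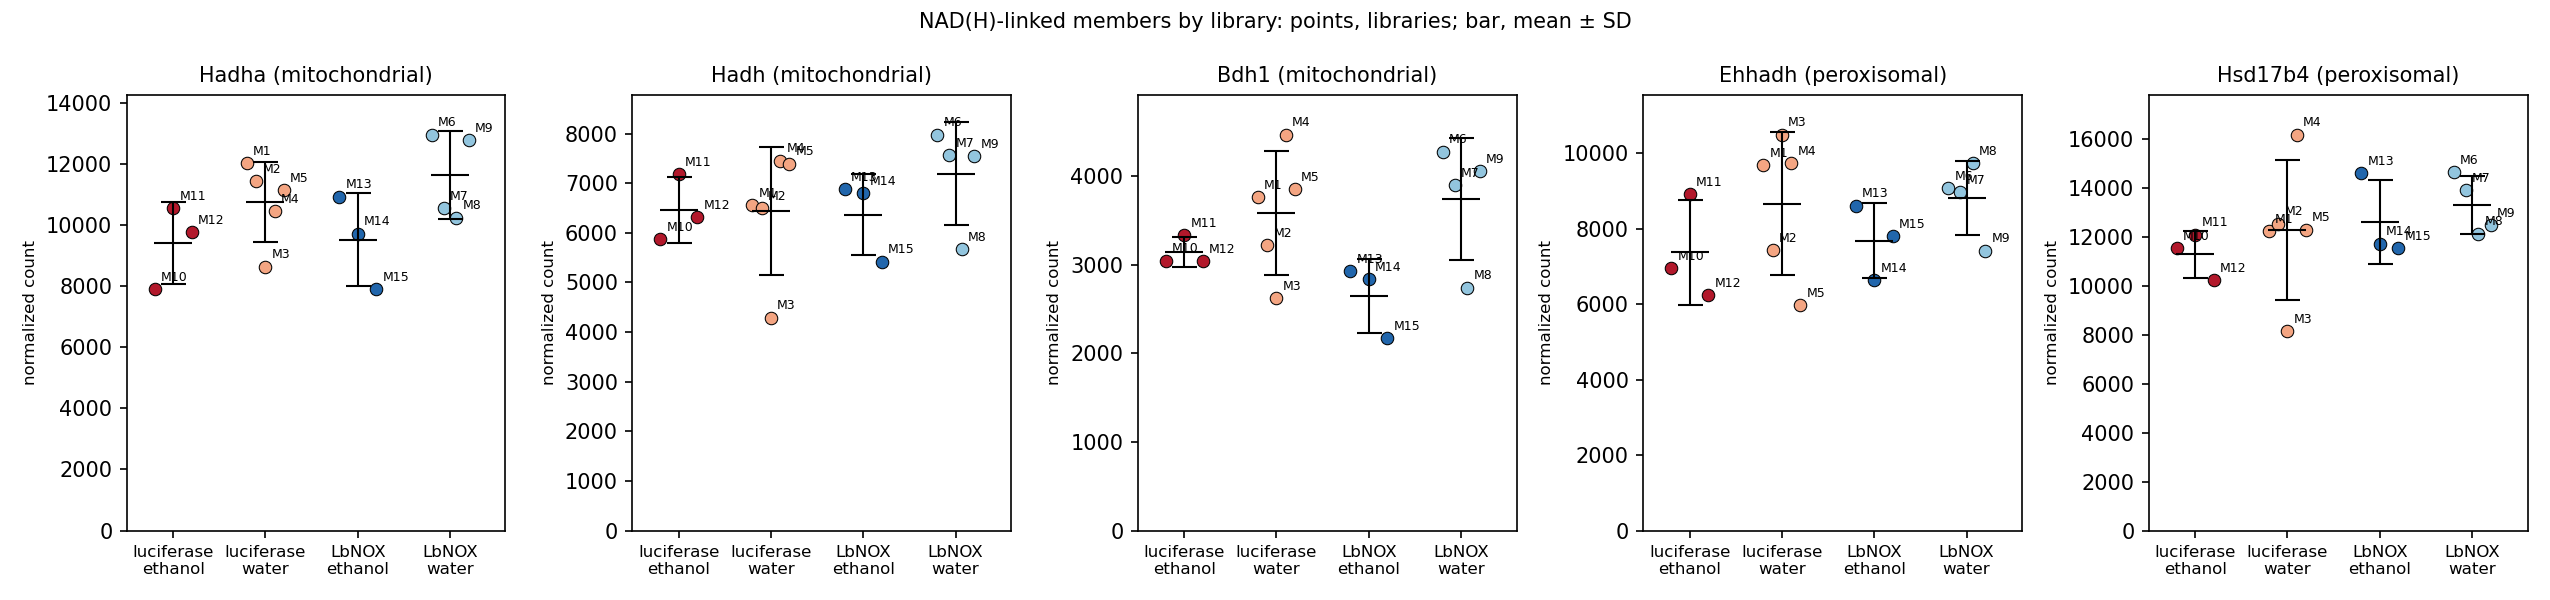
Normalized counts by library of the NADH-linked members, the mitochondrial Hadh, Hadha and Bdh1 and the peroxisomal Ehhadh and Hsd17b4, with ethanol groups left of the water group of the same construct, points as libraries and bars as group mean ± SD. Ethanol and water libraries overlap in every panel.

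Set beside each other, the mitochondrial and peroxisomal members had similar medians in ethanol against water. In luciferase livers the median log2 fold change of ethanol against water was -0.07 over 17 mitochondrial and -0.16 over 7 peroxisomal members, and in LbNOX livers -0.31 and -0.28. Mitochondrial minus peroxisomal median was thus 0.09 in luciferase and -0.03 in LbNOX livers. Without Eci1, the mitochondrial median was -0.10 over 16 members in luciferase and -0.31 in LbNOX livers. Taken library by library and without Eci1, the log2 level of mitochondrial minus peroxisomal members was -0.01 to 0.21 in luciferase ethanol, -0.13 to -0.03 in LbNOX ethanol, -0.14 to 0.07 in LbNOX water and -0.02 to 0.14 in luciferase water livers. The ethanol and water libraries of each construct overlapped, as did the constructs after water. After ethanol, the LbNOX libraries lay wholly below the luciferase libraries, with M15 at -0.026 and M11 at -0.012 the nearest. LbNOX over luciferase gave a difference of -0.18 after ethanol and -0.02 after water; the first became -0.09 without M15, and the second -0.10 without M4. For the NADH-linked steps alone, the median was -0.17 over 3 mitochondrial and -0.16 over 2 peroxisomal members in luciferase livers, and -0.29 and -0.14 in LbNOX livers. The FAD-linked mitochondrial members stood at -0.03 in luciferase and -0.29 in LbNOX livers. These medians rest on few genes of the same libraries and carry no test.

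**Figure D4:**
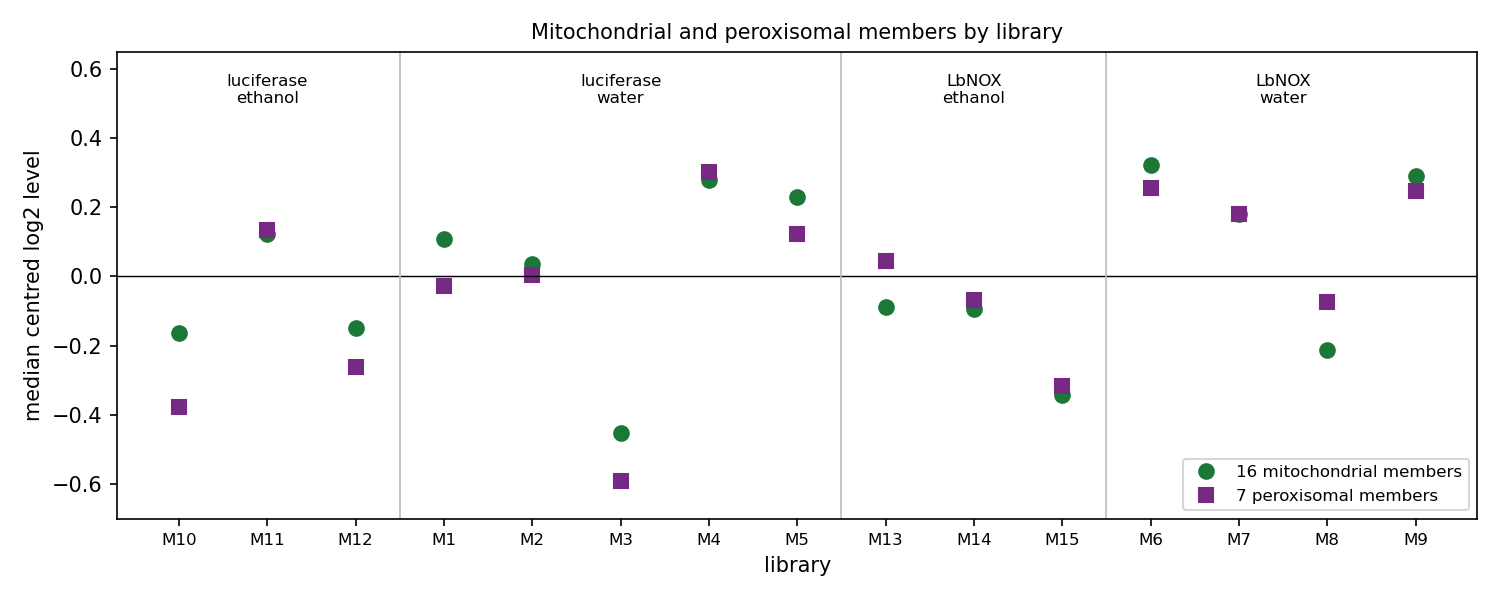
Median level of the 16 mitochondrial members other than Eci1 and of the 7 peroxisomal members in each library, as log2 relative to the mean over all libraries, with ethanol groups left of the water group of the same construct. Both compartments move together from library to library, and M3 is lowest for both, at -0.45 and -0.59.

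The enzymes that prepare unsaturated chains passed no comparison of 2 groups. Eci1, a mitochondrial enoyl-CoA isomerase, was listed at 0 in 8 of 15 libraries. It had 0, 464 and 335 in luciferase ethanol livers, 0, 45.2 and 184 in LbNOX ethanol livers, 559 in M8 and 0 in the other LbNOX water livers, and 174, 0, 0, 331 and 0 in luciferase water livers. Every group thus mixed zeros with higher values, and no fold change is given. Eci2, its counterpart in mitochondria and peroxisomes, averaged 4055 ± 190 in LbNOX ethanol livers and 5265 ± 693 in LbNOX water livers (SD, n = 3 and 4; log2 fold change -0.37, limma adjusted p = 0.443). Decr1 and Decr2, the mitochondrial and peroxisomal dienoyl-CoA reductases, averaged 3677 ± 400 and 3039 ± 389 in LbNOX ethanol livers and 4677 ± 751 and 4107 ± 785 in LbNOX water livers, and Ech1, a dienoyl-CoA isomerase, 5565 ± 938 and 6897 ± 1304 in the same order.

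Cyp4a10 and Cyp4a14, cytochromes of omega-oxidation, Pdk4, and Vnn1, a pantetheinase, are well-known fasting or PPAR-alpha responders in mouse liver, and none passed a comparison. Cyp4a10 had 5168, 7757 and 6198 in LbNOX ethanol livers, against 2159, 6587 and 3278 in luciferase ethanol livers, with M11 among the LbNOX values (0.80, SE 0.39, limma adjusted p = 0.261). It had 7939, 7880, 4821 and 6044 in LbNOX water livers, against 4711, 5206, 2716, 5047 and 8427 in luciferase water livers. Cyp4a14 had 10510, 8508 and 8967 in LbNOX ethanol livers, against 4034, 9946 and 5996 in luciferase ethanol livers, and 16084, 9557, 9166 and 6707 in LbNOX water livers, against 12821, 4891, 4840, 12562 and 6707 in luciferase water livers. Both cytochromes spread widely among luciferase libraries, with M11 the highest of the luciferase ethanol livers for each. Pdk4 had 917, 383 and 636 in LbNOX ethanol livers, against 207, 504 and 234 in luciferase ethanol livers, overlapping through M11 (1.06, SE 0.39, limma adjusted p = 0.131). It had 366, 579, 479 and 244 in LbNOX water livers, against 563, 564, 533, 457 and 311 in luciferase water livers. The difference of the ethanol effects on Pdk4 was 1.32 (SE 0.51, limma adjusted p = 0.231), and Pdk4 and Crot joined Acsl5 among the members called in LbNOX against luciferase after ethanol once M11 was left out, where 4.59% of all genes were called. Vnn1 averaged 1221 ± 301 in LbNOX ethanol livers and 1723 ± 363 in luciferase ethanol livers (SD, n = 3 each; log2 fold change -0.50).

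Among 42 further genes of fatty acid oxidation, 1 rose and 1 fell with ethanol in luciferase livers, where 4.62% of all genes rose and 3.13% fell. Nudt19, a peroxisomal CoA diphosphatase, rose (0.62, SE 0.15, limma adjusted p = 0.0181) and Abcd2, a peroxisomal transporter of fatty acyl-CoA, fell (-0.90, SE 0.23, limma adjusted p = 0.0265), while the median of the 42 was 0.07. Among 29 other genes listed as PPAR-alpha response genes, 6 rose and 5 fell, beside 4.62% and 3.13% of all genes. Both lists were chosen with earlier results of these data known, so their counts are a description and no test. Those that rose were Plin5, a lipid droplet protein (1.49), the hormone Fgf21 (1.81), Lpin1, a phosphatidate phosphatase and coregulator (2.12), Gpd1 (1.48), which oxidizes NADH in the cytosol, Me1 (1.00), which makes NADPH, and Pdk1 (1.28), a pyruvate dehydrogenase kinase. Those that fell were the lipid droplet protein Plin2 (-0.78) and the acyl-CoA thioesterases Acot1, Acot2, Acot3 and Acot4 (-1.02, -1.69, -2.98 and -1.26). In LbNOX livers, 0 genes of either list passed for ethanol against water by limma, and 0 passed between the constructs after water. After ethanol, LbNOX over luciferase was higher for Acad12, an acyl-CoA dehydrogenase family member (1.01), and lower for Nudt19 (-0.78) among the 42, and among the 29 it was higher for 3 (Acot2, Acot3 and Lpin2) and lower for 6 (Plin5, Fgf21, Gpd1, Me1, Pdk1 and the coactivator Ppargc1b), beside 2.24% of all genes higher and 3.82% lower. The difference of the ethanol effects passed for Plin5 (-1.33, limma adjusted p = 0.0312) and Fgf21 (-2.23, limma adjusted p = 0.0382), where 1.67% of all genes passed.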

How the data were processed

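Liver RNA was measured by RNA-seq in 15 libraries of 4 groups (KAPA mRNA HyperPrep, per the labels' protocols). Tools named without their role in the submitters' processing notes are DESeq2 1.30.1 and Salmon 1.5.1, with the build mm10. Values deposited by the authors are a normalized signal, gene counts scaled by 1 factor per library. Reads recovered from the step between values were whole within 0.001 for 100% of values. Replicate numbers of the labels are not in the table's header, which gives only groups and library names.

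Log2(value + 1) of genes that reached 10 in 3 or more libraries was tested with limma 3.58.1 (R 4.3.3; trend and robust variances); all 15 libraries were in 1 fit, with Benjamini-Hochberg adjustment over 13570 genes and calls at an adjusted p below 0.05. edgeR 4.0.16 and DESeq2 1.42.0 on recovered reads, which called 1049 and 1621 genes in luciferase ethanol against water, quantile normalization, other filters and pseudocounts, fits of only the groups compared and omission of libraries were alternatives. Library values are given for members called, the 3 smallest p where none was called, the 3 highest and 3 lowest fold changes in each comparison, and the NADH-linked members; other named members are shown to cover each role. Members and gene lists were chosen with earlier results of these data known. Tests were checked on simulated data. Exon lengths are from GENCODE vM21 (GRCm38). Protein sequences and the constructs' transcripts were not used here.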

Additional observations from a re-analysis of the deposited data

Results flagged for a closer look

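Dixon's test for a library far from the rest of its group was applied to 74 sets of values, members in the groups of 4 and 5 libraries, and 2 stood apart; chance alone gives about 1 in 20. Eci1 in LbNOX water livers had 559 normalized counts in M8, against 0 in the other libraries of the group. Decr2 in LbNOX water livers had 2935 normalized counts in M8, below the other libraries of the group by 0.895 of the whole range. M8 is also the library with a summed pancreatic acinar marker level of 8022, and the part of this in either value was not tested.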

How the results depend on the processing

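No paired analysis was possible because the table's header gives groups and library names without the labels' replicate numbers. The count of members called in luciferase ethanol against water was 2, and became 4 with quantile normalization (Cpt2 and Hadhb added; 8.26% of all genes called), 1 when only the luciferase groups were fitted (Acsl5; 4.5%) and 5 without M3 and M8 (7.28%), beside 7.75% of all genes in the fit reported. For LbNOX against luciferase after ethanol it was 1 (6.06% of all genes), and became 2 with quantile normalization (Hadhb added; 6.46%), 2 without M3 and M8 (8.8%) and 2 with DESeq2 (9.94%), Acaa1b being added by the last of these and without M3 and M8. For the difference of the ethanol effects it was 0 (1.67%), and became 1 with DESeq2 (4.66%). For the averaged ethanol effect it was 2 (5.2%), and became 4 with quantile normalization (5.43%), 14 without M3 and M8 (7.07%) and 5 with DESeq2 (9.45%). The share of all genes called was higher in each of these settings where members were added, except in luciferase livers without M3 and M8. With each library left out in turn, these 4 counts ran from 1 to 3, 1 to 3, 0 to 1 and 1 to 5, and both other counts stayed at 0. Mitochondrial minus peroxisomal median then ran from 0.0296 to 0.196 in luciferase ethanol (highest without M11), from -0.0452 to 0.0096 in LbNOX ethanol, from -0.100 to 0.0246 after water (lowest without M4), from -0.176 to -0.0866 after ethanol (nearest to 0 without M15) and from -0.135 to -0.0214 for the difference. The cause of these changes was not tested. No result changed sign past the threshold under the alternatives run. All genes called in LbNOX ethanol against water numbered 1 by limma, 282 by DESeq2 and 142 without M3 and M8; in LbNOX against luciferase after water they numbered 0, 18 and 2. Groups of 3 libraries limit what could be detected: the 95% intervals of most members stay within a 2-fold change, and Acsl5 and Cpt1a were called at smaller ones.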

Other observations

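Hadha and Hadhb are made into 1 complex and share the facing promoters printed above, and their ratio was looked at after the values were seen. Hadhb over Hadha was 0.621 ± 0.0293 in luciferase ethanol livers (0.593 to 0.651) and 0.728 ± 0.0413 in luciferase water livers (0.672 to 0.782; SD, n = 3 and 5). It was 0.807 ± 0.0439 in LbNOX ethanol livers (0.760 to 0.847) and 0.737 ± 0.0429 in LbNOX water livers (0.698 to 0.798; SD, n = 3 and 4). The luciferase ethanol libraries lay below those of every other group. Separation of 2 groups was common among single genes. It held for 14.7% of all genes in luciferase ethanol against water and 29.6% between the constructs after ethanol. No such share is given for ratios of genes, so how unusual this ratio is was not tested. Hadhb shares 23.3% of its 31-base words with other genes, and the part of this in the ratio was not tested.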
